A study of Homo sapiens with 4 samples.

Results

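The genes described are 10 members of the Kruppel-like factor (KLF) family, KLF2, KLF3, KLF4, KLF5, KLF6, KLF7, KLF9, KLF10, KLF13 and KLF14, taken by name from the 19970 protein-coding genes on chromosomes 1 to 22 and X. They were chosen with earlier results of these data known. All 10 were found in the RefSeq annotation of GRCh38. The chromatin was that of MCF10A, an established line of human breast epithelial cells that does not form tumours. Per the labels, cells were grown in MEGM with cholera toxin at 100 ng/ml, a condition that the 4 libraries share. Of these, 3 have peak lists, from 1 immunoprecipitation each with antibodies against H3K4me3, H3K79me2 and H3K27me3, and the input DNA library was not analysed here. The labels state no treatment contrast, so each mark was compared with the others at these genes, and the 10 genes with all others. With 1 library per mark there is no replicate check and no test, and the read depth is unknown.

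KLF proteins are transcription factors that bind GC-rich and CACCC-type DNA through C2H2 zinc fingers at the carboxyl end of the protein. Members differ in the part outside the fingers: KLF2, KLF4, KLF5, KLF6 and KLF7 are mostly known as activators, KLF3 recruits the corepressor CtBP, and KLF9, KLF10, KLF13 and KLF14 can bind the corepressor SIN3A. In epithelia, KLF5 is known for proliferation of basal cells and KLF4 for differentiation. H3K4me3 marks promoters and is known to spread over wide stretches at some genes of cell identity. H3K79me2 is laid down by DOT1L over the early part of transcribed genes, and H3K27me3 is the mark of Polycomb repression.

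The bases before the start sites are shown for the genes whose marks differed most, and hold from 1 to 41 CpG dinucleotides. Each window is the 250 bases before a start in RefSeq's GRCh38.p14, 5′ to 3′, with matches to GGGCGG or CACCC on either strand (CCGCCC and GGGTG on the printed strand) in capitals. Neighbouring or overlapping matches run together. Of the 10 genes, 8 had such windows, 12 in all.
KLF13, chr15:31326585-31326834, plus strand: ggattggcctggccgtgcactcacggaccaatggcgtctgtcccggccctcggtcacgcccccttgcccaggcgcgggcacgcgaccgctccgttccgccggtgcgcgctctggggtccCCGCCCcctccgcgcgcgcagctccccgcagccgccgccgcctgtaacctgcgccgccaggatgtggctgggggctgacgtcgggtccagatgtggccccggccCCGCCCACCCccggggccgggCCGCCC
KLF2, chr19:16324576-16324825, plus strand: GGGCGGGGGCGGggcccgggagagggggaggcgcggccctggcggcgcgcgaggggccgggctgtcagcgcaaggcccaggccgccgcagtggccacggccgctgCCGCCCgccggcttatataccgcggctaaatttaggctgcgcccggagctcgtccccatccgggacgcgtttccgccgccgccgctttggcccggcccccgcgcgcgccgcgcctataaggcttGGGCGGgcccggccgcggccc
KLF9, chr9:70414658-70414907, minus strand: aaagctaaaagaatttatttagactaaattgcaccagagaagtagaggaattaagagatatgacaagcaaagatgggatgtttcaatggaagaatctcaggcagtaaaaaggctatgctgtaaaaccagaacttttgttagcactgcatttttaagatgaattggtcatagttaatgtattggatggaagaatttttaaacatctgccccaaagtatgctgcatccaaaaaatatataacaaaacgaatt
KLF14, chr7:130734208-130734457, minus strand: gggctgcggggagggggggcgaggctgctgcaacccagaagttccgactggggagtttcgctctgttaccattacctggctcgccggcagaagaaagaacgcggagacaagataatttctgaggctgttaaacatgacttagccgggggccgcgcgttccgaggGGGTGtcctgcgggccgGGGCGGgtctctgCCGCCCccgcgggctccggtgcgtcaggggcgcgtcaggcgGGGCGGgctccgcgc
KLF5 outer start, chr13:73054726-73054975, plus strand: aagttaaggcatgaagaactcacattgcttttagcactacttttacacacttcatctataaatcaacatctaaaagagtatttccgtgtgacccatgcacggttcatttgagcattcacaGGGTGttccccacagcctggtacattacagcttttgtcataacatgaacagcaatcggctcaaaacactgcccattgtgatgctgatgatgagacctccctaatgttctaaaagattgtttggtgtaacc
KLF5 inner start, chr13:73058755-73059004, plus strand: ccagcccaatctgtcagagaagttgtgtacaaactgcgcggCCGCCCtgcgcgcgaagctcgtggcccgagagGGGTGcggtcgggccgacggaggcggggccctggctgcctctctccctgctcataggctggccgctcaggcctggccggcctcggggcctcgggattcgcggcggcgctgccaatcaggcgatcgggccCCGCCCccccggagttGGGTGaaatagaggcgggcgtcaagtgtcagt
KLF13, with the highest H3K4me3 fold of the 10 genes, had 34 CpG dinucleotides in its window, and KLF2 had 41. KLF9, with the next highest fold, had 1 CpG, and 96.8% of the 22131 windows of protein-coding genes had at least that many. KLF14, which had no H3K4me3 peak, had 27 CpG, as many as the inner start of KLF5, against a median of 16 in all windows. The outer start of KLF5 had 3. The windows stop at the start, while 89.9% of the H3K4me3 peak of KLF9 and 97.7% of that of KLF5 lay after it. The CpG number under those parts was not counted. GGGCGG was found in 7 of the 12 windows of KLF genes, against 53.7% of all windows, and CACCC in 6 of the 12, against 58.4%. These matches describe letters and not bound sites.

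The KLF genes fell into a large marked group and a pair of exceptions. KLF3, KLF4, KLF5, KLF6, KLF7, KLF9, KLF10 and KLF13 had wide H3K4me3 together with H3K79me2 over 47.7% to 92.3% of the gene record. KLF2 had a narrow H3K4me3 peak of 18.8-fold with no H3K79me2, and KLF14 had neither and lay beside a block of H3K27me3. An H3K4me3 peak of at least 1000 bp within 1000 bp of the record was present at 9 of the 10, against 72.0% of all protein-coding genes. The peak was at least 4000 bp wide at 8 of the 10, against 30.1%. H3K79me2 covered at least 25% of the record at 8 of the 10, against 42.0%. H3K27me3 covered at least 10% of the record with 10000 bp at each end at 1 of the 10, against 9.02%, a share near that of all genes. By stricter peaks, H3K79me2 was called at 3 of the 10 (KLF3, KLF5 and KLF13) with a −log10 q of 5 or more, against 10.6% of all genes, and at 0 with a fold of 5 or more, against 3.05%. H3K27me3 was then called at 0 with a −log10 q of 5 or more, against 0.391%, and still at 1 (KLF14) with a fold of 5 or more, against 0.566%. Wide H3K4me3 and H3K79me2 go together in general, since 81.6% of the 6015 genes with the wide peak had H3K79me2 by the same rule, against 24.9% of the others. Having H3K79me2 at all 8 genes with a wide peak is therefore close to what all such genes show. No other protein-coding record lay within 10000 bp of any of the 10, so their flanks hold no start of another protein-coding gene, though non-coding records lie there.

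**Figure D1:**
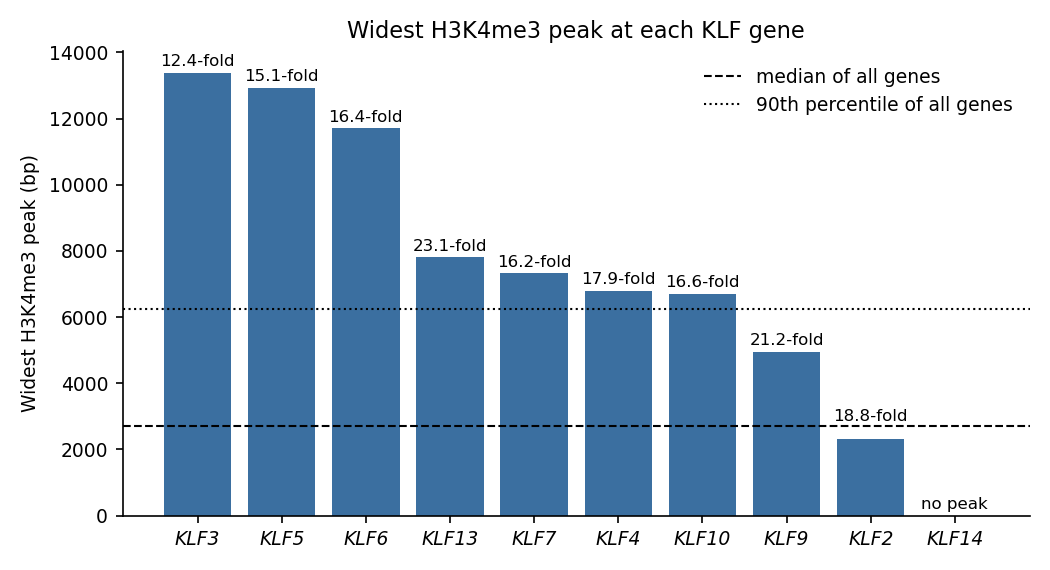
Bars give the width in bp of the widest H3K4me3 peak within 1000 bp of each KLF gene record, with the authors' fold of that peak above the bar; dashed and dotted lines give the median (2713 bp) and the 90th percentile (6245 bp) of all protein-coding genes. KLF3, KLF5 and KLF6 have the widest peaks (13380, 12925 and 11707 bp), KLF2 lies under the median and KLF14 has no peak.

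Among the activators, KLF5 (chromosome 13, 73054976 to 73077538) had both the widest H3K4me3 and the largest share of its record under H3K79me2. Its H3K4me3 peak was 12925 bp wide at 15.1-fold over the caller's background, the authors' fold for each peak, and 0.496% of all genes had a peak at least as wide. The peak covered both annotated starts, which lie 4029 bp apart, and ran 12626 bp into the record. H3K79me2 covered 92.3% of the record, the highest share among the 10, with a peak of 18259 bp and 4.49-fold that began 4180 bp after the outer start, just past the inner one. A weaker H3K79me2 peak of 2575 bp and 2.54-fold lay between the starts. No H3K27me3 peak was found in its record or flanks. A further H3K4me3 peak of 4065 bp in the body had 1.998-fold and a −log10 q of 0.256, so it is not one that passes a q of 0.05.

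KLF6 (chromosome 10, 3775996 to 3785209), a factor induced after tissue injury, was covered by H3K4me3 over its whole record. The peak of 11707 bp had 16.4-fold and reached past both ends of the record, and 0.721% of all genes had a peak at least as wide. H3K79me2 covered 87.3% of the record, mostly as a peak of 7538 bp and 4.03-fold. KLF4 (chromosome 9, 107484852 to 107489769), a reprogramming factor known for epithelial differentiation, was likewise covered by H3K4me3 over 100% of its record. Its peak was 6790 bp wide at 17.9-fold, and 7.58% of all genes had one at least as wide. H3K79me2 lay over 91.7% of this short record in 1 peak of 4508 bp and 3.16-fold. Another H3K4me3 peak of 1519 bp and 3.78-fold lay beyond the 3′ end of KLF4, from 8090 to 9608 bp after the start. The only H3K27me3 peak near KLF4 had 234 bp, 1.72-fold and a −log10 q of 0.132.

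KLF7 (chromosome 2, 207074137 to 207173851), known from neuronal outgrowth, had the longest H3K79me2 peak of the 10 genes. It was 84483 bp long at 3.75-fold, and 0.881% of all genes overlapped a peak at least as long. In all, H3K79me2 covered 85.4% of the record. The H3K4me3 peak of 7318 bp and 16.2-fold covered 3 of the 4 annotated starts of KLF7. The outermost of these starts lay 6605 bp inside the record's outer end, which no H3K4me3 peak covered. The fourth start, 39714 bp inside the record's outer end, lay in a separate H3K4me3 peak of 3340 bp and 3.78-fold with a −log10 q of 5.33, and also inside the long H3K79me2 peak. The record and flanks of KLF7 held 0 H3K27me3 peaks.

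KLF2 (chromosome 19, 16324826 to 16328685), known for quiescence of T cells and for the response of endothelium to flow, differed from these in both active marks. Its H3K4me3 peak was 2324 bp wide, and 56.3% of all genes had one at least as wide. The peak also overlapped the non-coding record KLF2-DT, which lies just before KLF2, so it is shared by both. The fold of this peak, 18.8, was above that of KLF3, KLF4, KLF5, KLF6, KLF7 and KLF10, and 18.8% of all genes reached it. The peaks of these KLF genes are wider, each peak has a single fold for its whole width, and whether fold depends on width was not tested. No H3K79me2 peak overlapped the record or the 10000 bp at each end, and the nearest lay 12421 bp away, with 687 bp, 2.14-fold and a −log10 q of 0.627. H3K27me3 was limited to a pair of peaks of 165 and 175 bp, at 2.31- and 2.16-fold, both with a −log10 q of 0.362. Of the 3754 genes whose H3K4me3 fold was at least that of KLF2, 20 (0.533%, KLF2 included) had no H3K79me2 peak in record or flanks. Of those with no H3K4me3 peak wider than that of KLF2, 339 genes, 10 (2.95%) were without it and 39.5% had the H3K79me2 call. Of those with a record of up to 5000 bp, 411 genes, 6 (1.46%) were without it and 85.9% had the call. These subsets were chosen after the values of KLF2 were seen.

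**Figure D2:**
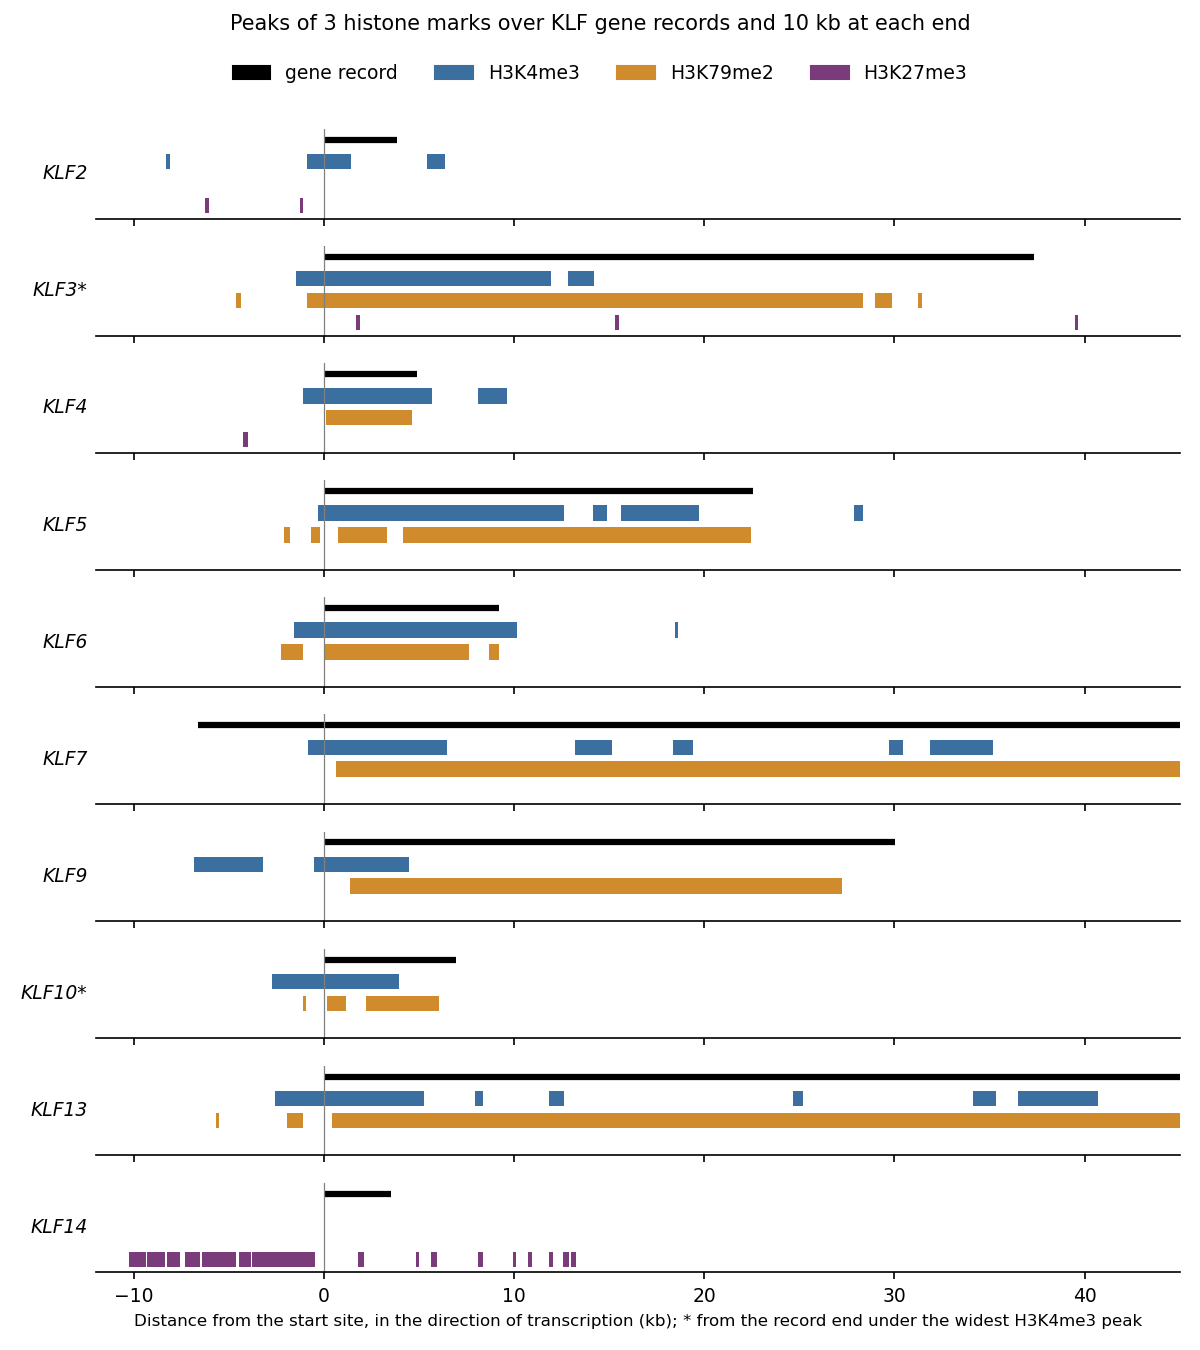
Each row shows a KLF gene record (black) and the peaks of H3K4me3 (blue), H3K79me2 (orange) and H3K27me3 (purple) that overlap it or the 10 kb at each end, against distance in kb from the outermost annotated start, or, for the genes with an asterisk, from the record end under the widest H3K4me3 peak. KLF7 and KLF13 run past the right edge. Orange bars cover from 47.7% (KLF13) to 92.3% (KLF5) of the whole record at 8 genes, and KLF2 and KLF14 have none.

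KLF3 (chromosome 4, 38664199 to 38701517), the member that recruits CtBP, had the widest H3K4me3 peak of the 10 genes and the lowest fold among the 9 with a peak. The peak was 13380 bp wide at 12.4-fold. Only 0.401% of all genes had a peak at least as wide, while 56.1% had a fold at least as high. H3K79me2 covered 78.96% of the record, with a peak of 29201 bp and 4.74-fold, the highest H3K79me2 fold among the 10. That peak extended 873 bp outside the record, where the non-coding record KLF3-AS1 overlaps the end of KLF3, so peaks there are shared by both. The 3 H3K27me3 peaks at KLF3 were of 165 to 176 bp, and 0 of them had a −log10 q of at least 1.3.

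The members that can bind SIN3A ranged in H3K4me3 from the highest fold of the 10 (KLF13) to no peak (KLF14). KLF13 (chromosome 15, 31326835 to 31435665), first known as a T cell activator of the chemokine RANTES, had the highest H3K4me3 fold of the 10, 23.1 over 7812 bp, and 2.86% of all genes reached that fold. H3K79me2 covered 47.7% of its record, the lowest share among the 8 marked genes, although the peak of 50181 bp and 4.50-fold was longer than that of any of the 10 but KLF7. The peak ended 50592 bp after the start, and no H3K79me2 peak lay in the record beyond 54192 bp. KLF13 also held more H3K4me3 peaks than the others, 12 in record and flanks, of which 5 had a −log10 q of at least 1.3. The strongest of the inner ones, 1617 bp at 16.0-fold and 64609 to 66225 bp after the start, reached into the non-coding record LOC105370939 and lay beyond the last H3K79me2 peak.

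KLF9 (chromosome 9, 70384604 to 70414657), a target of glucocorticoid and progesterone receptors, had H3K4me3 at 21.2-fold over 4957 bp, and 7.72% of all genes reached that fold. A second H3K4me3 peak of 3612 bp and 12.3-fold lay 3203 to 6814 bp before the start, within the non-coding record KLF9-DT. The main peak overlapped KLF9-DT as well. H3K79me2 covered 86.0% of KLF9 in 1 peak of 25841 bp, but at 2.68-fold, the lowest top fold among the 8 marked genes, and with a −log10 q of 1.57. The peak began 1389 bp after the start. KLF10 (chromosome 8, 102648784 to 102655725), an early target of TGF-beta, had a single H3K4me3 peak of 6695 bp at 16.6-fold. Of this peak, 2736 bp lay outside the KLF10 record, where it reached into the non-coding record LOC101927245. H3K79me2 covered 69.6% of KLF10, in peaks of 3873 bp (2.71-fold) and 961 bp (3.12-fold). The records and flanks of KLF9 and KLF10 held 0 H3K27me3 peaks, and that of KLF13 held 1, of 165 bp.

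**Figure D3:**
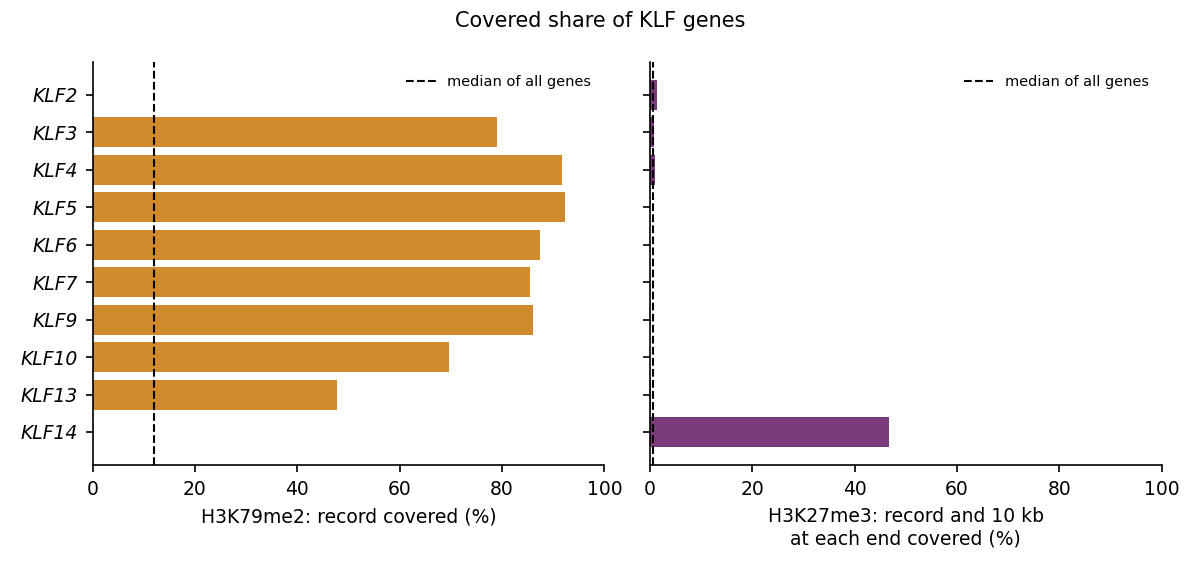
Horizontal bars give the percentage of each KLF record covered by H3K79me2 peaks (left) and of the record with 10 kb at each end covered by H3K27me3 peaks (right); dashed lines are medians of all protein-coding genes. H3K79me2 shares lie between 47.7% and 92.3% at 8 genes and at 0 for KLF2 and KLF14, and KLF14 stands alone in H3K27me3 at 46.6%.

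KLF14 (chromosome 7, 130730697 to 130734207), an imprinted gene linked to fat metabolism, had none of the active marks. No H3K4me3 or H3K79me2 peak overlapped the record or its flanks, and the nearest lay 60136 bp (H3K4me3, 843 bp at 6.64-fold) and 35762 bp (H3K79me2, 150 bp at 2.43-fold) away. H3K27me3 covered 46.6% of the record with its flanks in 16 peaks, and 0.426% of all genes had at least that share. Of the 16 peaks, 8 had a −log10 q of at least 1.3. The mark was uneven around the gene. It covered 88.4% of the 10000 bp before the start in 7 peaks of 3.25- to 5.76-fold, but the nearest of them ended 461 bp before the start. Within the record it covered 8.57%, as a single peak of 301 bp and 2.31-fold with a −log10 q of 0.362. On the record alone KLF14 would thus not pass the threshold of 10% that 8.94% of all genes then pass. The block before the start lies in the record of the non-coding LOC105375508. Joined across gaps of up to 3000 bp, the H3K27me3 peaks formed a stretch of 35382 bp, from 130718972 to 130754353, with 29 peaks that covered 56.5% of it. Joining in this way is permissive, since 20.6% of all genes then had the H3K27me3 call, against 9.02% without it. Of all protein-coding genes, 3.37% had the H3K27me3 call with no H3K4me3 within 1000 bp of the record and no H3K79me2 in record or flanks, as KLF14 did.

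**Figure D4:**
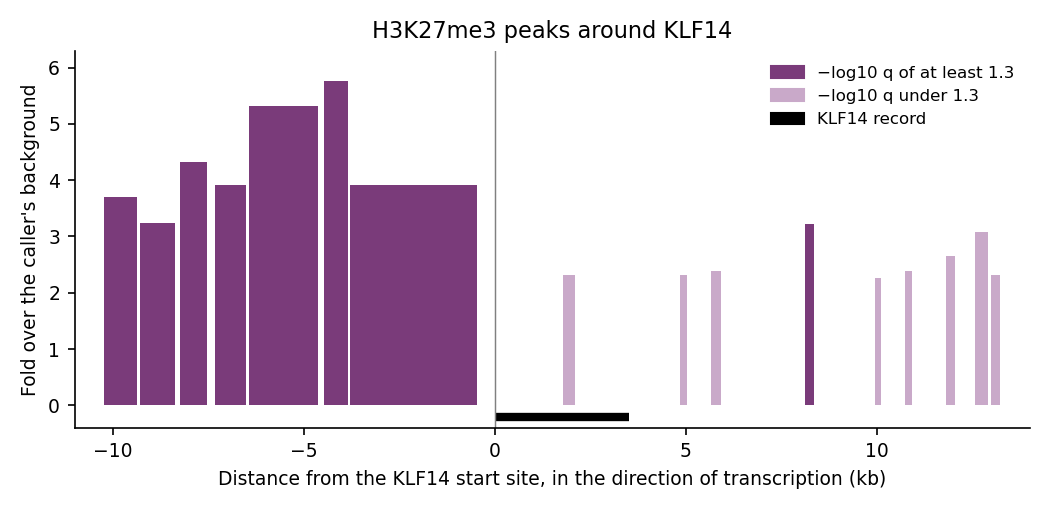
Each bar is an H3K27me3 peak, its width to scale in kb from the KLF14 start and its height the authors' fold; dark bars have a −log10 q of at least 1.3 and the black line is the gene record. The 7 peaks before the start form a nearly continuous block of 3.25- to 5.76-fold, and the record itself holds 1 low peak.

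Relative to the start site, both active marks lay mainly on the transcribed side. At the 7 genes with an annotated start under an H3K4me3 peak (KLF2, KLF4, KLF5, KLF6, KLF7, KLF9 and KLF13), 60.6% to 97.7% of the peak lay after the start. KLF5 had the most one-sided peak and KLF2 the least. Among all 4424 genes with a peak of at least 4000 bp over the outermost start, the median was 68.3%. Of the 6 KLF genes with such a peak over the start (KLF4, KLF5, KLF6, KLF7, KLF9 and KLF13), 0 had the outermost start inside an H3K79me2 peak, while 42.9% of those 4424 genes and 21.6% of all 15811 genes with a start in the table did. An inner start of KLF7 and its start deep in the record did lie inside the long H3K79me2 peak. The longest H3K79me2 peak began 82 bp after the start at KLF6, 119 bp at KLF4, 412 bp at KLF13, 642 bp at KLF7, 1389 bp at KLF9 and 4180 bp at KLF5, where the smaller peak began at 740 bp. The median over the 4345 genes with a peak in the record was 95 bp. Within the first 1000 bp, H3K79me2 covered 91.8% at KLF6, 88.1% at KLF4, 58.8% at KLF13, 35.8% at KLF7, 26.0% at KLF5 and 0% at KLF9. H3K4me3 covered 100% of the same stretch at all 6. Start sites of KLF3 and KLF10 were not used here, and the outermost start used for KLF7 lies 6605 bp inside its record.

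The rest of the family was read by the same rules, from lists chosen with earlier results of these data known. Of the other 8 KLF genes, 7 had H3K4me3, 2 had the wide peak, 2 had H3K79me2 and 0 had H3K27me3, against 72.0%, 30.1%, 42.0% and 9.02% of all protein-coding genes. The share with the wide peak is near that of all genes. KLF16 (12413 bp, 18.1-fold, 79.5% of the record with H3K79me2) and KLF12 (6622 bp, 23.7-fold, 29.2%) were the marked pair. KLF8, with H3K4me3 of 3819 bp, and KLF11, with 23.6% of its record under H3K79me2, came close to a threshold. KLF18 had no peak of H3K4me3, and KLF8 (7.40%), the erythroid factor gene KLF1 (2.998%) and KLF15 (1.07%) had the highest H3K27me3 shares of record and flanks. Of the 9 genes of the SP factors, which share the zinc finger type of the KLF proteins, 9 had H3K4me3, 3 had the wide peak and H3K79me2, and 2 had H3K27me3, the share with the wide peak again near the 30.1% of all genes. The ubiquitous SP1 (13213 bp), SP3 (5738 bp) and SP2 (4028 bp) had the wide peaks. SP8 (38.9%), SP5 (13.2%) and SP6 (5.15%) had the highest H3K27me3 shares, and SP8 and SP5 had H3K4me3 at 23.4- and 12.96-fold, unlike KLF14. On the record alone, H3K27me3 covered 23.5% of SP9 and 10.3% of SP5, also above KLF14.

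Taking these 27 KLF and SP genes, 13 had both the wide H3K4me3 peak and H3K79me2, 14 had neither, and 0 had exactly 1 of these calls. Of all protein-coding genes, 24.6% had both and 22.9% had exactly 1. The split did not hold under stricter peaks: 1 gene (KLF12) had exactly 1 call when peaks under a −log10 q of 1.3 were dropped, 8 when those under 5 were, and 11 when those under 5-fold were, against 20.9%, 23.6% and 27.6% of all genes. In each case these were genes that kept the wide H3K4me3 peak, and 14 genes had neither call. The split also depends on the thresholds. At 50% of the record (27.4% of all genes), KLF13 (47.7%), SP2 (42.2%) and KLF12 (29.2%) would keep only the wide peak. At a width of 2000 bp (61.0% of all genes), KLF2 and others without the H3K79me2 call would have the wide peak. Medians of the widest H3K4me3 peak were 7054 bp over the 10 genes described, 2766.5 bp over the other KLF genes, 3277 bp over the SP genes and 2713 bp over all protein-coding genes. The 10 genes were chosen with earlier results of these data known. Whether their wider peaks reflect that choice was not tested. Of 16 genes of cofactors and upstream regulators of KLF proteins, 16 had H3K4me3, 11 had the wide peak, 13 had H3K79me2 and 1 had H3K27me3, against 72.0%, 30.1%, 42.0% and 9.02% of all genes, the last share being near that of the list. CTBP2 (10652 bp), the corepressor gene whose protein KLF3 recruits, MEF2D (10173 bp) and the acetyltransferase gene EP300 (8945 bp) had the widest H3K4me3. MEF2C, which with the kinases MAP2K5 and MAPK7 acts upstream of KLF2 and KLF4, was the gene with H3K27me3, over 25.04% of record and flanks. MEF2A (1.01%) and CTBP1 (0.856%) followed in that mark. MEF2C, MAP2K5 and the acetyltransferase gene KAT2B were without the H3K79me2 call, and HDAC1, HDAC3, KAT2B, MAPK7 and MEF2C were without the wide peak.

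**Figure D5:**
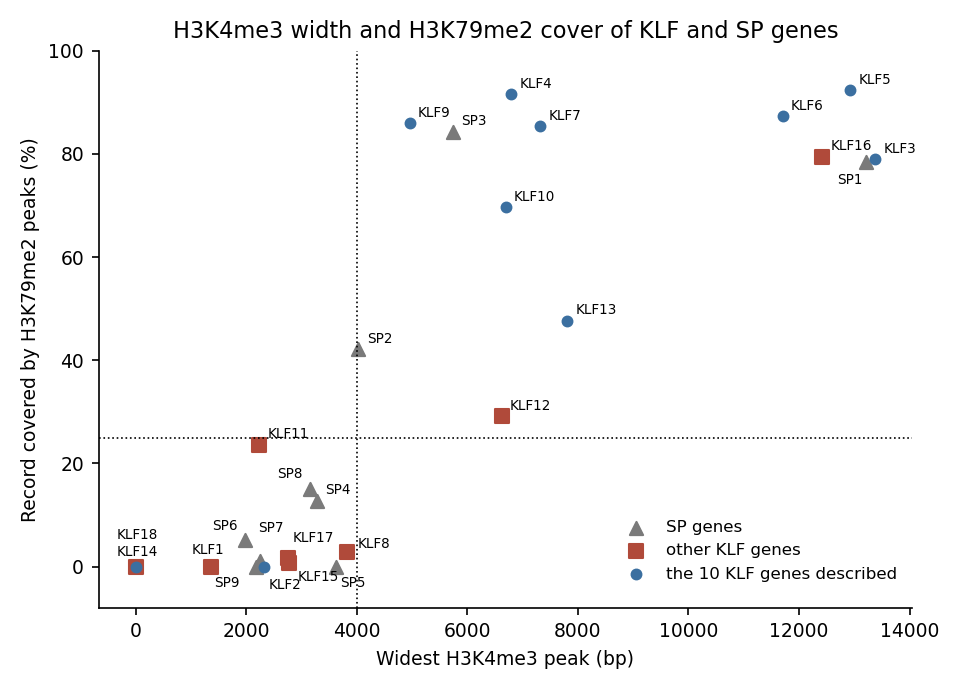
Points are KLF and SP genes, by the width in bp of the widest H3K4me3 peak within 1000 bp of the record and by the percentage of the record under H3K79me2 peaks; dotted lines are the thresholds of 4000 bp and 25%. With all deposited peaks, the 13 genes to the right of the width line all lie above the 25% line and the 14 others all lie below it, KLF14 and KLF18 at the origin.

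As a check of the labelled cell type, all 8 basal mammary marker genes had the wide H3K4me3 peak and 7 had H3K79me2, TP63 being the exception, against 30.1% and 42.0% of all genes. H3K79me2 was called at 0 of 4 luminal, 0 of 5 fibroblast, 0 of 4 immune and 0 of 3 endothelial markers. H3K4me3 was called at 2 markers of each of these 4 lists, against 72.0% of all genes, and the wide peak at 1 of them, the luminal keratin gene KRT19. The peak lists held 67781 H3K4me3, 112731 H3K79me2 and 393202 H3K27me3 peaks. Marks read in a population of cells cannot show whether they lie on the same cells or alleles.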

How the data were processed

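Peak lists from 1 ChIP-seq library per mark in MCF10A were used. The submitters' processing notes name Bowtie2 2.3.1, MACS2 2.1.1 and the build hg38. A p threshold of 0.05 stands in the peak names, with the word broad for H3K4me3 and H3K79me2. Whether the input served as control, and the handling of duplicates, are not given in the sources used here. Per the labels and layout, the deposited fold enrichment is the ratio over the caller's background, and the deposited −log10 p and −log10 q are the caller's own values per peak; the deposited integer score was not used. Peaks were called per library and not pooled. The authors' values per peak describe peaks within a list.

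Covered bases and overlaps (at least 1 bp) were computed in Python 3.11.15 with pandas 2.3.3 over records of the RefSeq table (GRCh38.p14) and 10000 bp at each end, and tested on simulated intervals. Starts and promoter bases came from the RefSeq promoter table, which matched 8 of the 10 genes; positions are 1-based. Thresholds were 1000 and 4000 bp for H3K4me3 width, 25% of the record for H3K79me2 and 10% of record and flanks for H3K27me3. Each was set beside all 19970 protein-coding genes. Protein sequences were planned and not used here. The members, lists and thresholds were chosen with earlier results of these data known. Named genes were the 10 members, the 3 with the widest H3K4me3 and the 3 with the highest H3K27me3 share of each list, exceptions of up to 5, and others near a threshold, chosen after their values were seen. With 1 library per mark no test was run; peak lists give no depth and so no interval or detection floor. Alternatives were other peak thresholds, widths, shares, reaches and joining of peaks.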

Additional observations from a re-analysis of the deposited data

How the results depend on the processing

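The counts of the 10 KLF genes were recomputed under 14 alternative settings, 5 for H3K4me3, 6 each for wide H3K4me3 and H3K79me2 and 7 for H3K27me3. Of these 24 recomputed counts, 20 stayed within 1.5 times the count given. The count with H3K79me2 went from 8 to 3 (KLF3, KLF5 and KLF13) once peaks under a −log10 q of 5 were dropped (all genes, 10.6%) and to 0 once peaks under 5-fold were dropped (all genes, 3.05%); the highest fold of any H3K79me2 peak is 7.47. The count with H3K27me3, 1, went to 0 without peaks under a −log10 q of 5 (all genes, 0.391%) and to 0 on the record only (8.94%). The H3K4me3 counts of 9 and 8 changed in none of the settings tried except at a width of at least 2000 bp, where 9 genes, KLF2 included, had the wide peak against 61.0% of all genes. The 8 with H3K79me2 went to 7 at 50% covered, without KLF13 (all genes, 27.4%). With the flanks included they went to 6, without KLF4 and KLF10 (all genes, 38.5%). Without peaks under a −log10 q of 1.3, H3K79me2 went from 2 to 1 of the other KLF genes (all genes, 32.1%). H3K27me3 then went from 2 to 1 of the SP genes (all genes, 3.62%). Without peaks under a −log10 q of 5 or under 5-fold, H3K79me2 was at 1 of the other KLF and 1 of the SP genes (all genes, 10.6% and 3.05%). H3K27me3 was then at 0 of the SP and cofactor genes (all genes, 0.391% and 0.566%). H3K79me2 was at 3 of the 16 cofactor genes without peaks under 5-fold (all genes, 3.05%). No paired analysis was possible because each mark has 1 library. Width follows how the caller joins regions, and H3K79me2 folds are low throughout. The depth of the libraries is unknown, so the absence of a peak is not the absence of the mark.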

Other observations

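With 20000 bp instead of 10000 bp at each end, KLF14 had 0 bp of H3K79me2 and no H3K4me3 peak. Its H3K27me3 cover was 5311 bp with flanks of 5000 bp, 10964 bp with 10000 bp and 19827 bp with 20000 bp. KLF2 went from 0 to 687 bp of H3K79me2 with 20000 bp, all in the weak peak 12421 bp from its record. Its H3K27me3 cover was 175, 340 and 578 bp over the same flanks. KLF6, KLF9 and KLF10 had 0 bp of H3K27me3 over the wider stretch as well. The bases shared by H3K4me3 and H3K79me2 peaks in record and flanks came to 15926 bp at KLF5, 14122 bp at KLF3, 13456 bp at KLF7, 13134 bp at KLF13, 8502 bp at KLF6, 4508 bp at KLF4, 3066 bp at KLF9 and 2874 bp at KLF10.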
